A study of Schizosaccharomyces pombe with 4 samples.

Results

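The nuclear genes for mitochondrial ribosomal proteins that carry an *mrpl* or *mrps* name were followed through native elongating transcript sequencing (NET-seq) of fission yeast, *Schizosaccharomyces pombe*. A gene was a member when it was a protein-coding gene of chromosome I, II or III whose name began with mrpl or mrps and a digit. This rule, which used no measured value, found 33 of the 5118 nuclear protein-coding genes, 27 for the large subunit (*mrpl*) and 6 for the small subunit (*mrps*), among 9111 annotated units of all classes. The label was checked against RefSeq, in which all 33 members have a mitochondrial ribosomal product. It does not cover the whole ribosome, since RefSeq gives such a product to 43 further genes with other names.

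Wild-type cells of strain YAM2492 (h-, rpb3-flag), in which the Rpb3 subunit of RNA polymerase II (RNAPII) carries a FLAG tag, were harvested in mid-log phase from rich medium (YES) at 32 °C. The nascent RNA bound to the tagged polymerase gave 2 IP libraries, 1 per biological replicate, and total RNA of the same 2 biological samples gave 2 input libraries by the same protocol with the polymerase purification left out. All 4 libraries come from the tagged strain, and an untagged or treated culture was not analysed here. Library totals were inferred from the scaling of the deposited values, with the shallowest library set to 7100000 reads, the smallest total that the study states. On that base the IP libraries hold 7100000 and 7117477 reads and the input libraries 9082385 and 9823089. Of these totals, the nuclear protein-coding genes took 49.3% and 48.1% in IP but 10.1% and 15.1% in input. Without the 20 of them that share nucleotides with a tRNA, snRNA, snoRNA or rRNA, they took 48.2% and 46.9% in IP and 3.04% and 6.15% in input, and values scaled on protein-coding reads below use these remaining genes. The median member had 208 and 180 reads in the IP libraries and 9 and 20 in the input libraries, so that every comparison with input rests on few reads.

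The mitochondrial ribosome is built inside the organelle from rRNAs of the mitochondrial genome and proteins that are nearly all encoded in the nucleus, translated in the cytosol and imported. It makes the few membrane proteins that the mitochondrial genome encodes, core subunits of the respiratory chain and of the ATP synthase. Protein names of the common ribosome nomenclature are used beside the gene names. A protein with the prefix u has relatives in the ribosomes of bacteria and of the eukaryotic cytosol. One with b has relatives in bacteria, and one with m is specific to the mitochondrial ribosome.

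All 33 members were transcribed above 1 RPKM (reads per kb of annotated gene, scaled to library depth) in IP, as were 96.2% of all nuclear protein-coding genes. Their median was 26.9 RPKM, beside 25.3 RPKM over all nuclear protein-coding genes. The lowest member had 9.32 RPKM and the highest 51.8 RPKM, a range of 5.56-fold. The middle of the distribution was narrow: the quartiles of the members lay at 21.9 and 30.8 RPKM, a ratio of 1.41, while those of all protein-coding genes lay at 13.9 and 45.1 RPKM, a ratio of 3.24. Of the 33 members, 29 fell between the quartiles of all genes. In input the median member had 1.46 RPKM and the median gene 1.37 RPKM, with 25 of 33 members above 1 RPKM, a share of 75.8% beside 61.5% of all genes.

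**Figure D1:**
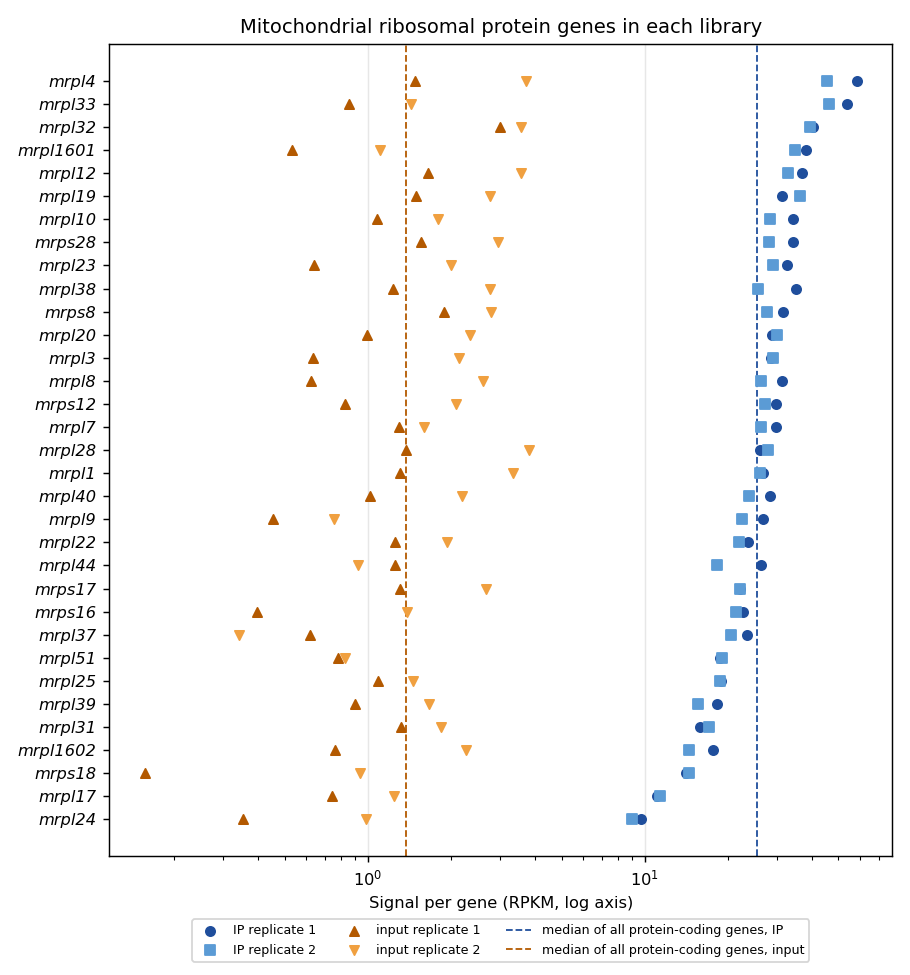
Signal of each of the 33 members in the 4 libraries, in RPKM on a log axis, sorted by mean IP level. Circles and squares are the IP replicates, triangles the input replicates, and dashed lines the medians of all nuclear protein-coding genes (25.3 RPKM in IP, 1.37 RPKM in input). The IP points of each member lie close together and right of both input points, which are spread more widely.

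The highest nascent level was that of *mrpl4* (SPCC4G3.06c), which encodes uL29m, a relative of a bacterial protein at the exit of the polypeptide tunnel. It is a gene of 520 nt without introns on the plus strand of chromosome III, from 461951 to 462470 in ASM294v2. It had 58.2 and 45.4 RPKM in the IP libraries (215 and 168 reads) and 1.48 and 3.72 RPKM in input (7 and 19 reads), and its IP level exceeded that of 78.9% of all protein-coding genes. *mrpl33* (SPCC1919.08c; chromosome III, 2221979 to 2222620, minus strand), the gene of uL30m, followed with 53.7 and 46.2 RPKM in IP and 0.858 and 1.43 RPKM in input. The IP values of both genes overlapped, so their order is not resolved by 2 replicates.

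Next came *mrpl32* (bL32m) with 40.3 and 39.5 RPKM in IP, *mrpl1601* (uL16m, whose bacterial relative lies beside the tRNA sites of the large subunit) with 38.3 and 34.9 RPKM, and *mrpl12* with 37.0 and 32.8 RPKM. *mrpl12* encodes bL12m, the protein of the flexible stalk that in bacteria recruits the translation factors. *mrpl19* encodes uL11m, from the base of that stalk in bacteria, and had 31.1 and 36.3 RPKM. Its value was higher in replicate 2, whereas 25 of the 33 members were higher in replicate 1 of IP.

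At the other end stood *mrpl24*, the gene of bL28m, with 9.67 and 8.97 RPKM in IP. *mrpl17* (mL46) had 11.1 and 11.3 RPKM and *mrps18*, a putative small subunit protein, 14.1 and 14.5 RPKM. The file's *mrpl1602* is *mrpl6* in RefSeq and encodes uL6m, which in bacteria sits near the site where translation factors bind. It had 17.7 and 14.4 RPKM, followed upward by *mrpl31* (mL60) with 15.8 and 17.1 RPKM and *mrpl39* (bL33m) with 18.2 and 15.6 RPKM. The IP values of *mrpl24* and *mrpl17* did not overlap with each other or with those of any other member. Both IP libraries ranked the members alike, with a Spearman rho of 0.91 over the 33 genes, which share their libraries and are not replicates.

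The largest distances between the IP replicates were those of *mrpl44* (mL53) and *mrpl38*, a putative large subunit protein. *mrpl44* had 26.2 RPKM from 82 reads in replicate 1 and 18.2 RPKM from 57 reads in replicate 2, a difference of −0.50 on the log2(RPKM + 1) scale. *mrpl38* had 35.2 and 25.6 RPKM, a difference of −0.44. Over all 33 members this difference lay between these values and 0.22.

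The highest input levels were those of *mrpl32*, *mrpl12*, *mrpl4* and *mrpl28*. *mrpl32* had 3.01 and 3.56 RPKM from 25 and 32 input reads and *mrpl12* 1.64 and 3.58 RPKM from 28 and 66 reads. *mrpl28*, the gene of mL40, had 1.37 and 3.81 RPKM in input but an IP level of 25.9 and 27.8 RPKM, near the median of the members. The order of the members in input was less reproducible than in IP, with a Spearman rho of 0.73 between the input libraries. The input value was the higher one in replicate 2 for 31 of 33 members. The median of all nuclear protein-coding genes differed likewise, with 0.923 RPKM in input replicate 1 and 1.79 RPKM in input replicate 2. No member had 0 reads in any library. *mrps18* had 2 reads in input replicate 1 and *mrpl37* had 3 in input replicate 2, at or under the floor of 3 reads.

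By protein class, the 16 members of the u class had a median of 29.0 RPKM in IP, the 5 of the b class 28.7 RPKM and the 9 of the m class 21.9 RPKM, while RefSeq gives 3 members no class. The ranges were 16.03 to 51.8 RPKM for u, 9.32 to 39.9 RPKM for b and 11.2 to 29.4 RPKM for m, and they overlap. By subunit, the 27 large subunit genes had a median of 26.9 RPKM and the 6 small subunit genes one of 25.3 RPKM in IP. All small subunit genes lay within the large subunit range: *mrps28* (uS15m) had 34.3 and 28.1 RPKM, *mrps8* (uS8m) 31.5 and 27.7 RPKM, *mrps12* (uS12m, from the decoding centre in bacteria) 29.7 and 27.2 RPKM, *mrps17* (uS17m) 22.1 and 22.1 RPKM and *mrps16* 22.6 and 21.4 RPKM, beside *mrps18* above. *mrps28*, *mrps8* and *mrps12* are given here to complete the small subunit and were chosen after their values were seen. On the reads of coding segments alone the difference between the subunits turned round, from a log2 ratio of the medians of 0.09 to −0.12. Levels over coding segments divide by coding length alone and have the limit for short segments given below.

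The 43 other genes with a mitochondrial ribosomal product had a median of 25.2 RPKM in IP and a wider range, 5.72 to 119 RPKM. The 39 genes of mitochondrial translation and genome expression had a median of 17.6 RPKM, the 37 genes of the respiratory chain and ATP synthase 60.9 RPKM and the 141 cytosolic ribosomal protein genes 293 RPKM. The members thus lay below the lower quartile of the respiratory genes (44.7 RPKM) with 2 exceptions, *mrpl4* and *mrpl33*, and all lay below the lower quartile of the cytosolic ribosomal protein genes (215 RPKM). These lists are descriptions with no test, since genes are not replicates.

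**Figure D2:**
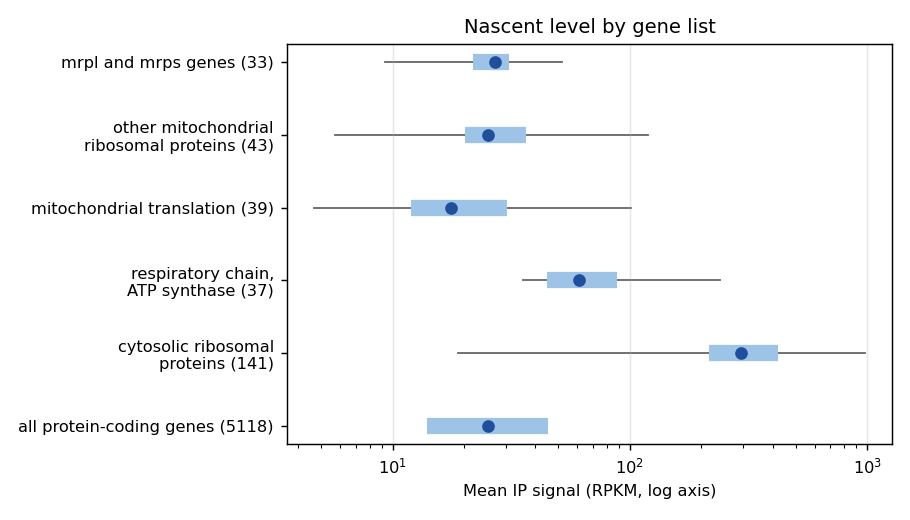
Mean IP level of 6 gene lists in RPKM on a log axis, with the number of genes in parentheses. Points are medians, thick bars run between the quartiles and thin lines between the lowest and the highest gene, except for all protein-coding genes, whose lowest value is 0 and whose line is left out. The bar of the *mrpl* and *mrps* genes, 21.9 to 30.8 RPKM, is the shortest of the 6 on this axis and lies around the median of all genes.

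Levels per gene depended on how much of the annotated interval is coding. The interval runs beyond the coding sequence (CDS) in every member, and the median member had 50.7% of its length outside CDS, beside 34.5% for all protein-coding genes with at least 20 reads in each IP library. Of the IP reads of the median member, 33.5% and 33.8% lay outside CDS in the 2 replicates, beside 21.2% and 21.5% in the median gene of all. The other mitochondrial ribosomal protein genes had medians of 52.2% of length and 38.1% and 39.3% of IP reads outside CDS (40 genes). The respiratory chain and ATP synthase genes had 55.2% of length and 26.3% and 27.1% of IP reads (37 genes). Pooled over the members, the share was 38.5% ± 0.059 (SD, n = 2) in IP and 33.6% ± 3.71 (SD, n = 2) in input.

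*mrpl24* had the smallest share of CDS. Its annotated interval is 4980 nt long (chromosome II, 2218178 to 2223157, plus strand) and its CDS 531 nt, 10.7% of the interval. On CDS reads alone it had 33.2 RPKM in IP and rank 19 of the 33 members, in place of the last rank over the interval. *mrps16* has 11.6% of its 2500-nt interval in CDS, and its IP level was 70.1 RPKM over CDS, rank 3, and 22.0 RPKM over the interval, rank 24. *mrpl39*, with 19.6% of its interval in CDS, moved from rank 28 to rank 8, at 42.3 RPKM over CDS. *mrpl17* stayed near the bottom on both measures, with 15.4 RPKM over CDS. Over the 33 members both measures had a Spearman rho of 0.71, given as a description since they share reads. The median member had 34.2 RPKM over CDS. These CDS levels divide by CDS length alone. If a 50-nt read that only touches a segment is counted in it, they are too high, most where segments are short. *mrpl39* has 168 nt of CDS and *mrps16* 291 nt, each in 3 segments. How far this enters the rank moves was not tested.

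**Figure D3:**
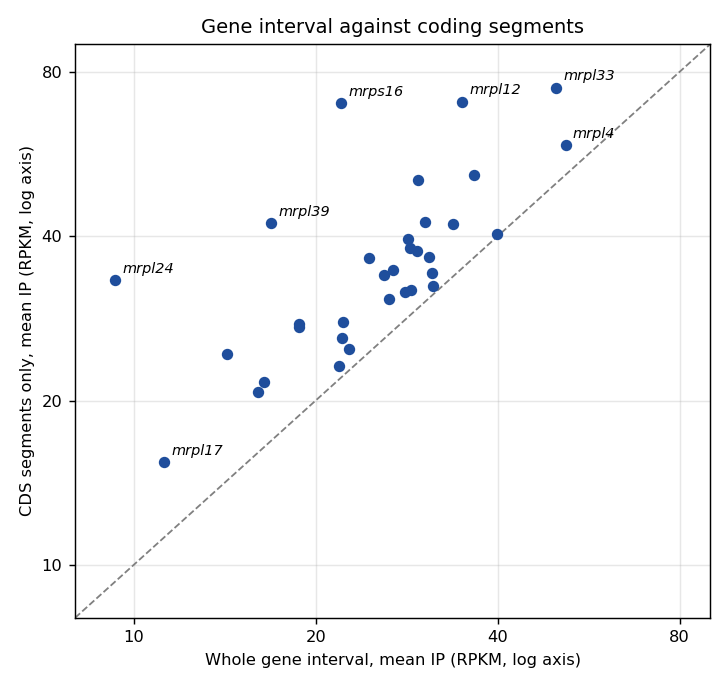
Mean IP level of the 33 members over the whole annotated interval (x axis) and over the CDS segments (y axis), in RPKM on log axes, with a dashed line where both are equal. All points lie on or above the line, and *mrpl24* (9.32 and 33.2 RPKM), *mrps16* (22.0 and 70.1 RPKM) and *mrpl39* (16.9 and 42.3 RPKM) lie farthest from it. CDS levels are not corrected for reads that reach past the ends of a segment.

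Introns interrupt the CDS of 12 members (36.4%, beside 46.7% of all nuclear protein-coding genes). There are 19 introns, of 39 to 429 nt with a median of 67 nt. *mrpl17* has 4 CDS segments, the most of any member, and *mrpl3*, *mrpl38*, *mrpl39*, *mrpl51* and *mrps16* have 3 each. In several members the first CDS segment is short and held many IP reads. The beginning of 4 of them is shown as RefSeq gives it in ASM294v3, 5′ to 3′ on the coding strand, with the first CDS segment in capitals and the intron after it in lower case: the 3 members with a first segment under 100 nt and the largest excess of IP signal in it, and *mrpl38*, where the signal was lowest.
mrpl33, chrIII:2222467-2222571, minus strand: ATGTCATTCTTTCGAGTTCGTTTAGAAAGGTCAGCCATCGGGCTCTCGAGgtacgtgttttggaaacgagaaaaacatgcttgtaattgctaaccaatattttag
mrpl12, chrIII:1160510-1160593, plus strand: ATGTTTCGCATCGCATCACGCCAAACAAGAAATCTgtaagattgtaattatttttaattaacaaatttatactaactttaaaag
mrpl8, chrII:341520-341656, minus strand: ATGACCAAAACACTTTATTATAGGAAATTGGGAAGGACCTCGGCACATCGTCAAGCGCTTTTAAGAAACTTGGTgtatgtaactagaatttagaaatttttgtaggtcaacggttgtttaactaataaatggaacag
mrpl38, chrII:3551348-3551432, plus strand: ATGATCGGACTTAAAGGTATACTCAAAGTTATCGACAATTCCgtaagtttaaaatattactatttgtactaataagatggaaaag

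The 50-nt first segment of *mrpl33* had 103 and 79 IP reads, and the 244-nt second segment 60 and 71. The 35-nt first segment of *mrpl12* had 81 and 78 IP reads, against 192 and 173 in the other 487 nt. In *mrpl8*, the gene of bL17m, which in bacteria lies near the tunnel exit, the 74-nt first segment had 55 and 37 IP reads and the other 550 nt 133 and 113. A 50-nt read that touches a short segment can be counted in it, so densities were taken over the length of each segment plus 49 nt.

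On that scale the first segment was 4.11 times as dense as the rest in *mrpl33*, 2.78 times in *mrpl12* and 1.82 times in *mrpl8*. *mrpl25* (mL59) had a ratio of 3.18, but between a long first segment of 399 nt and a last one of 39 nt with 4 and 6 reads. In *mrpl38* the order was the opposite, with 4 and 4 reads in the first segment against 143 and 97 in the others and a ratio of 0.12. The deposited annotation starts the CDS of *mrpl38* 30 bases farther upstream than RefSeq, as a 72-nt segment, and the reads are those of that longer segment. In input the first segments of these genes had between 0 and 8 reads per library. The first segment was the denser one in 10 of the 12 members (83.3%), with a median ratio of 1.41. Over the 2346 protein-coding genes with several segments and IP reads in both parts, it was denser in 83.6%, with a median ratio of 1.56, so the members' share lay near that of other genes. *mrpl8* and *mrpl25* were chosen here after their values were seen.

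**Figure D4:**
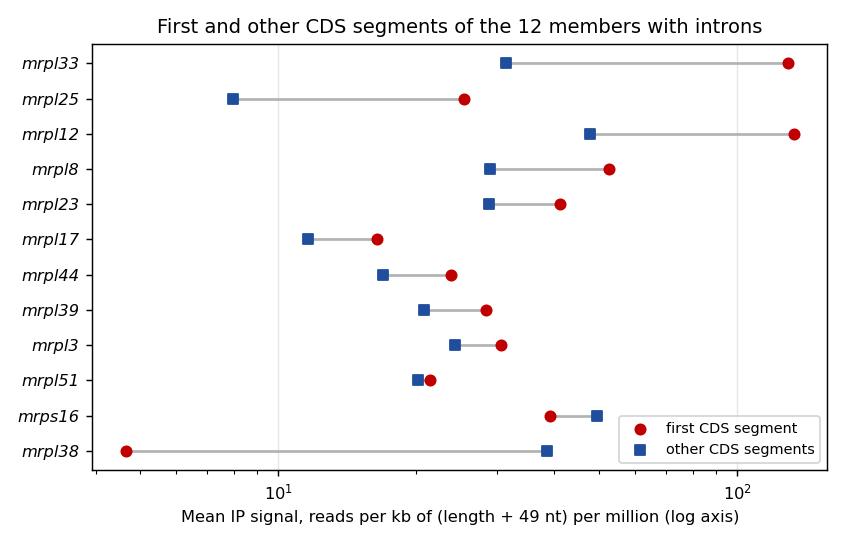
Mean IP signal in the first CDS segment (circles) and in the other CDS segments (squares) of the 12 members with introns, in reads per kb of length plus 49 nt, scaled to library depth, on a log axis. Circles lie right of squares in 10 genes, farthest in *mrpl33* (ratio 4.11), and far left in *mrpl38* (ratio 0.12).

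IP was next set against input, which asks where signal on the polymerase was high relative to the RNA in the cell. Under the authors' scaling by library totals all 33 members were higher in IP at a limma adjusted p of 0.05, in a comparison where 92.8% of 8912 units tested were. The median log2 change was 3.42 for the members and 3.28 for protein-coding genes with a pseudocount of 1, and that of the members was 4.02 with a pseudocount of 0.1 and 1.68 with one of 10. IP lay above input without overlap in all 33 members and in 95.6% of the units tested. The members' share is thus read against a background in which nearly every unit passed. With the changes centred on the protein-coding median, 3 members were higher (as were 9.19% of units) and 6 lower (as were 54.4%).

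Within protein-coding genes, with values scaled on protein-coding reads, 15 of the 33 members (12 of the large and 3 of the small subunit) were higher in IP at a limma adjusted p of 0.05 and none was lower, also at an unadjusted p of 0.05, where 19 were higher. In this comparison 50.4% of 5057 genes tested were higher and 8.23% lower, so the members' share of 45.5% was near that of all genes. Of the 33 members, 28 were above input in both pairs of libraries and none was below in both, beside 75.6% and 13.5% of all genes tested. The median log2 change of the members was 0.64, beside 0.69 over all genes, and each change below is best read against the latter. With TMM factors, which bring the median of all genes to 0.09, limma called 3 members higher (in a comparison where 14.0% of genes were higher) and 1 lower (where 16.8% were), *mrps17* at −0.53 with an adjusted p of 0.045 (0.063 with the replicate block added, which ends this call), and edgeR with TMM factors called 4 higher (where 18.9% were) and none lower (where 22.2% were; 3 members were lower at an unadjusted p of 0.05). DESeq2 called 3 higher (where 10.8% were) and none lower (where 16.9% were). These counts rest on 2 replicates: with limma and no IP replicate 1 or no IP replicate 2, no member passed the adjusted threshold, and 5 and 6 were higher at an unadjusted p of 0.05, while 1.74% and 1.72% of all genes were called higher. Without input replicate 1 there were 25 called, where 66.5% of all genes were, and without input replicate 2 there were 22, where 63.7% were.

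**Figure D5:**
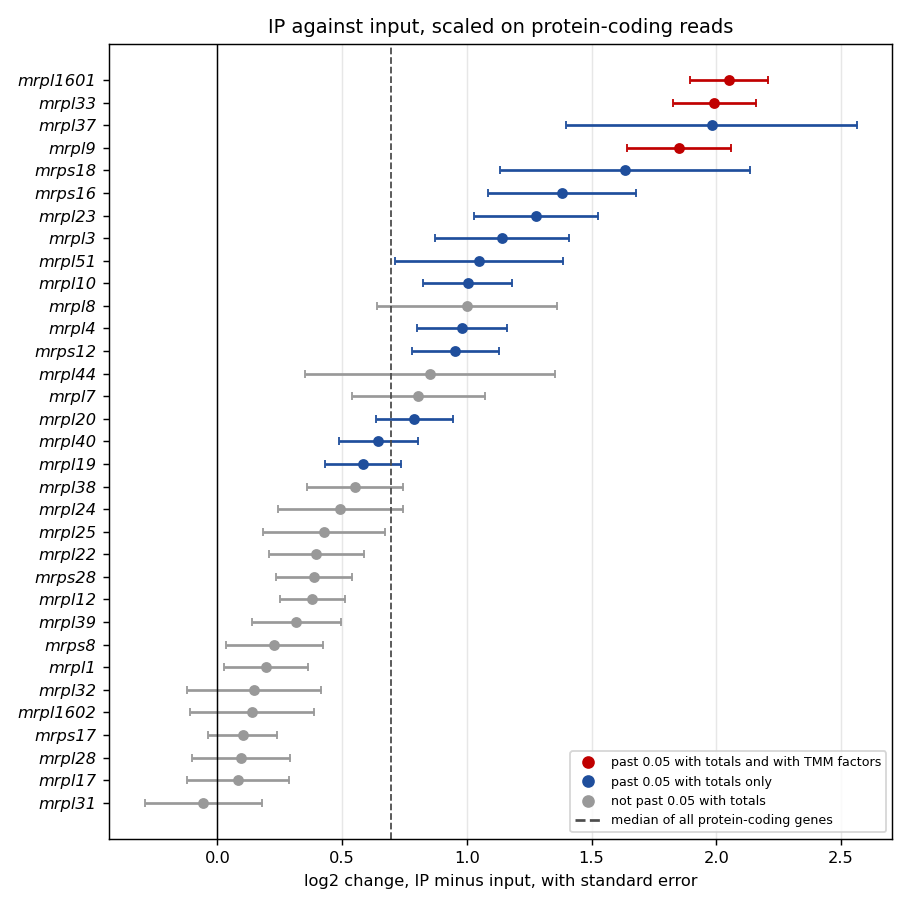
Log2 change between IP and input of the 33 members, scaled on protein-coding reads, with its standard error from limma (2 IP and 2 input libraries). The dashed line is the median of all protein-coding genes, 0.69. The 3 genes in red, *mrpl1601*, *mrpl33* and *mrpl9*, passed an adjusted p of 0.05 with totals and with TMM factors, the 12 in blue with totals only, and the 18 in grey did not pass with totals.

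Of the 15 members called, the largest change was that of *mrpl1601* (SPBC1105.03c), the gene of uL16m at 3507523 to 3509173 on the minus strand of chromosome II. Per kb and scaled on protein-coding reads it stood at 79.5 and 74.4 in IP and 17.6 and 18.1 in input, with 8 and 18 input reads, and all IP values were above all input values. Its log2 change was 2.05 ± 0.15 (SE) with an adjusted p of 0.0024 by limma, and 1.42 under edgeR with an adjusted p of 0.00049. *mrpl33* (uL30m) had 112 and 98.4 in IP and 28.2 and 23.2 in input. Its change was 1.99 ± 0.17 (limma adjusted p 0.0027). *mrpl9* (SPAC644.17c; chromosome I, 2701420 to 2703846, minus strand) encodes uL3m, whose bacterial relative reaches toward the peptidyl transferase centre. It had 55.6 and 47.6 in IP and 14.9 and 12.3 in input and changed by 1.85 ± 0.21 (limma adjusted p 0.0037). The same 3 genes were those called higher under DESeq2, after quantile normalization and with TMM factors in limma, to which edgeR added *mrpl37*. As stated above, such calls depend on having both IP libraries. The changes without IP replicate 1 were 2.00 for *mrpl1601*, 1.90 for *mrpl33* and 1.74 for *mrpl9*, and without IP replicate 2 they were 2.10, 2.08 and 1.96.

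IP and input reads of *mrpl9* lay in different places. Outside CDS were 54.0% and 50.3% of its 461 and 386 IP reads, while 9 of its 10 and 15 of its 18 input reads lay in CDS. On CDS reads alone its ratio of IP to input was 1.90 and 2.31 in the 2 pairs, in place of 3.72 and 3.88 over the interval. The interval of *mrpl9* overlaps that of *rna15* on the other strand over 1419 nt, 58.5% of its length. For *mrpl33* the CDS ratio was 3.29 and 4.52, beside 3.96 and 4.24 over the interval. For *mrpl1601* it was 4.74 and 3.14, beside 4.53 and 4.12.

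*mrpl37* and *mrps18* complete the 5 largest changes, and each had an input library with 3 reads or fewer. *mrpl37* (mL54) had 48.4 and 43.5 in IP and 20.4 and 5.6 in input, from 5 and 3 reads, and a change of 1.98 ± 0.58 (limma adjusted p 0.039). Its ratio in the second pair was 7.77, with a 95% exact interval of 2.60 to 38.2 that covers counting error only. It shares nucleotides with *cca2* on the same strand, so part of its reads can belong to that gene. *mrps18* changed by 1.63 ± 0.50 (limma adjusted p 0.043), and its ratio was 5.69 (1.55 to 47.5) in the first pair and 2.02 (1.14 to 3.88) in the second. The other 10 called members changed by between 0.58 (*mrpl19*) and 1.38 (*mrps16*), and of these *mrpl19*, at 0.58, and *mrpl40* (uL24m), at 0.64, lay below the median change of all genes. With TMM factors the change of *mrpl19* became −0.05. The lowest change was that of *mrpl31*, −0.06 ± 0.24 (limma adjusted p 0.85), with 8 and 12 input reads. With TMM factors in limma it was −0.69 (adjusted p 0.082). After quantile normalization it was −0.92 (limma adjusted p 0.037) and so called lower, as were 13.4% of all genes. With the replicate number as a block, 18 members were called in place of 15 (and 52.7% of all genes in place of 50.4%), the additional ones being *mrpl7*, *mrpl8* and *mrpl44*, with adjusted p values of 0.021, 0.035 and 0.042 by limma.

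The related lists moved as follows in the comparison within protein-coding genes, where 50.4% of all genes tested were higher and 8.23% lower. Of the 43 other mitochondrial ribosomal protein genes 22 were higher and none lower at a limma adjusted p of 0.05, with a median log2 change of 0.60 (5 higher and 5 lower by edgeR). Of the 39 genes of mitochondrial translation 24 were higher and 1 lower (median 0.82), and of the 37 respiratory chain and ATP synthase genes 24 were higher and 3 lower (median 0.74). Cytosolic ribosomal protein genes differed from all of these, with 5 of 141 higher and 129 lower and a median of −1.02. With TMM factors in limma, 14.0% of all genes were higher and 16.8% lower. The counts higher and lower were then 6 and 3 for the other mitochondrial ribosomal protein genes and 6 and 2 for mitochondrial translation. They were 3 and 5 for the respiratory genes and 3 and 134 for the cytosolic ribosomal protein genes. Of the reads of protein-coding genes that share no nucleotides with those small RNAs and rRNAs, the members took 0.226% and 0.212% in the IP libraries, and 0.130% and 0.131% in the input libraries. Of the reads of all nuclear protein-coding genes, they took 0.221% and 0.207% in IP, and 0.0391% and 0.0532% in input. On either base the share was higher in both IP libraries, without overlap. An exact permutation test (first base, two-sided p = 0.333) cannot decide this, since 0.333 is the smallest that 6 arrangements allow. The rise on the first base is read against the median log2 change of 0.69 over all genes. The second base includes the 20 genes that share nucleotides with small RNAs or rRNAs. In input replicate 1 it holds 915143 reads, against 276068 without those genes. For RNA of a bulk culture, fewer transcripts per cell and transcripts in fewer cells cannot be told apart.

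Antisense units were the last feature examined, as annotated noncoding RNAs and XUTs (transcripts that build up without the exonuclease Exo2) on the opposite strand that overlap a member by at least 50 nt. Of the 33 members 10 had such a unit above 1 RPKM in IP, 30.3%, beside 31.0% of all nuclear protein-coding genes. The highest was XUT1235, 278 nt long and wholly inside *mrpl3* (mL44, related to the ribonuclease III family), with 28.9 and 19.7 RPKM in IP from 57 and 39 reads and 0 and 1 reads in input. *mrpl3* itself had 28.5 and 29.1 RPKM over its 1387 nt, so the unit reached 84.3% of the sense level. Here and below, such a percentage sets the density of the unit against that of the whole gene. Sense signal over the overlapped stretch alone was not measured.

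XUT1393 overlaps the start of *mrpl1*, the gene of uL1m of the L1 stalk, over 188 nt, and had 18.1 and 16.6 RPKM in IP. Most of that unit lies outside the gene, since the overlap is 5.44% of its 3459 nt. *mrps17* is overlapped over 63.6% of its length, start included, by an annotated antisense RNA with 10.4 and 7.08 RPKM and 0 and 1 input reads, 39.6% of the sense level. XUT1044 lies within the same stretch, so both units share reads. *mrpl33*, the second highest member on the sense strand, is overlapped at its start by XUT0934 with 8.76 and 7.28 RPKM, 16.05% of the sense level. In 5 members an antisense unit of any level covered the annotated start. One of them was *mrpl4*, the highest member, whose antisense RNA had 1.20 and 0.798 RPKM in IP, from 6 and 4 reads. Its mean of 0.999 RPKM lay just under the threshold of 1 RPKM. Whether it passes therefore depends on the read total that anchors the RPKM scale.

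A 3′ end of another unit on the opposite strand lay within 500 bp of that of 21 members (63.6%, beside 54.8% of all genes), and the start of another gene on the opposite strand within 500 bp of that of 9 members (27.3%, beside 18.99%). Intervals of protein-coding genes on the opposite strand overlapped 15 members by at least 50 nt (45.5%, beside 36.0% of all genes). On the same strand 5 members share nucleotides with another unit (15.2%, beside 22.5% of all genes), namely *mrpl1*, *mrpl20*, *mrpl24*, *mrpl37* and *mrpl51*, and their values are uncertain to that extent. The members are spread over chromosomes I (9), II (15) and III (9). Only *mrps12* and *mrpl28* were direct neighbours, in opposite directions with 637 bp between them on chromosome I, and *mrpl40* follows *mrpl28* after 2 genes. The 3 genes had similar IP levels (28.5, 26.9 and 25.99 RPKM), while their log2 changes against input were 0.95, 0.09 and 0.64.

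Windows of 250 bases upstream of each RefSeq gene start were searched on both strands for 5 motifs, none of which contains another. CAGTCACA (HomolD) and CCCTACCC (the core of HomolE), known from cytosolic ribosomal protein genes of *S. pombe*, were in none of the 33 windows of the members, while HomolD was in 62.4% and the HomolE core in 34.8% of the 141 cytosolic ribosomal protein windows, and in 2.62% and 1.55% of all 5113 windows. Of the 43 other mitochondrial ribosomal protein windows, none held HomolD and 4.65% the HomolE core. AATTTTTC, known from mitochondrial ribosomal protein genes of other yeasts, was in 3 member windows (*mrpl12*, *mrpl19* and *mrpl39*; 9.09%, beside 5.20% of all), and in 1 of the 43 windows of the other mitochondrial ribosomal protein genes (2.33%). TATAAA was in 45.5% of member windows and 44.4% of all, and CCAAT in 27.3% and 35.3%. A match describes letters in the window only.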

How the data were processed

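Groups and replicate numbers came from the sample titles. The authors sequenced strand-specific libraries in 50-nt reads, trimmed the 5′ adapter and kept unique matches to ASM294v2 (Bowtie, per the submitters' processing notes). They deposited a signal for every feature and strand: its read count, scaled by 1 factor a library for the unique matches, and that count over the feature's length. How reads touching several features were counted is not given in the sources used here. Whole reads could be recovered, since 100% of the signal values of every library fell on multiples of its step (tolerance 0.01 reads). edgeR on these reads, within protein-coding genes, called 920 genes higher and 1077 lower in IP. The RPKM scale sets the shallowest library to 7100000 reads, the smallest total that the study states, so absolute levels rest on that anchor.

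IP and input were compared by limma with a trend on log2(value + 1) over units with a read in any library, two-sided, with Benjamini-Hochberg adjustment over all of them. Fold changes on this scale understate those of low units. Values were RPKM, or reads per kb scaled on the reads of nuclear protein-coding genes that share no nucleotides with a tRNA, snRNA, snoRNA or rRNA. Pooled columns were not used. The 33 members and all lists were chosen with earlier results of these data known. The list of mitochondrial translation genes was fixed by name, and 6 of its 45 genes, which RefSeq gives another product, were left out afterwards, while the 43 other mitochondrial ribosomal proteins were taken by RefSeq product. Fixed by name instead, the latter list had 30 genes, a median of 25.2 RPKM in IP and 16 higher and 0 lower by limma in IP within protein-coding genes.

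Members named were the 6 highest and 6 lowest in IP, the 4 highest in input, the 5 largest changes called, the 4 with the highest antisense unit, those with the most CDS segments, and the 2 with the largest difference between IP replicates. The remaining names were picked once values were known. Equal groups of 2 libraries measure the spread between 2 biological replicates only, and intervals on read ratios (95%, exact) cover counting error only.

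The labels state that input was made from the same biological samples as IP, so equal numbers pair the libraries. Differences between replicates correlated with r = 0.16 between IP and input over the members, and 0.31 over 1536 genes with at least 100 input reads. The 28 repeated pseudogene entries were left out. CDS coordinates of 31 members were the same in RefSeq ASM294v3, and all 33 CDS, read at the deposited coordinates in that genome, were open reading frames (*mrps18* and *mrpl38* start later in RefSeq). Ratios over CDS and lists by RefSeq product were added once the values had been seen. The limma and edgeR fits were first tested on simulated data. Alternatives changed the pseudocount, the filter, the scaling, the test, the block, the replicates and the annotation thresholds. Versions were R 4.3.3, limma 3.58.1, edgeR 4.0.16, DESeq2 1.42.0, Python 3.11.15, scipy 1.17.1 and Biopython 1.88.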

Additional observations from a re-analysis of the deposited data

How the results depend on the processing

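Alternatives gave 381 recomputed values, and 45 of them belong to alternatives that were chosen after seeing the data, the replicate block with edgeR and with TMM factors in limma. Under the authors' scaling, all 33 members were higher in IP with limma, as were 92.8% of units. Under edgeR with TMM factors 4 members were higher and 0 lower, beside 15.4% and 19.9% of units. With the replicate block added, 5 were higher and 3 lower, beside 17.9% and 22.0%. DESeq2 with its size factors gave 3 and 0, beside 8.1% and 12.7%. Centring on the protein-coding median in limma gave 3 and 6, beside 9.19% and 54.4%. These alternatives change the scaling, the first 3 also the test. Without 1 replicate the count lay between 32 and 33. Within protein-coding genes the 15 members called higher became 18 with the replicate block in limma, where 52.7% of genes were higher. Under edgeR with TMM factors 4 were higher and 0 lower (18.9% and 22.2% of genes). With the replicate block added to edgeR these were 5 and 1 (21.2% and 24.3%). DESeq2 with its size factors gave 3 and 0 (10.8% and 16.9%). Limma with TMM factors gave 3 and 1 (14.0% and 16.8%). With TMM factors and the replicate block in limma they were 4 and 0 (16.4% and 19.2%), *mrps17* having an adjusted p of 0.063. Quantile normalization in limma gave 3 and 3 (12.7% and 13.4%), the lower ones being *mrpl17*, *mrpl31* and *mrps17*. Leaving out 1 library gave between 0 and 25, and the lone library left in a group is then assumed to vary like the other group's. The median change of the members minus that of all genes lay between −0.09 and 0.03 under every alternative run within protein-coding genes. The 9 and 20 reads of the median member in input limit its precision.

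Changes against input turned sign as follows. *mrpl19* went to −0.059 under edgeR, −0.0085 with the replicate block added, −0.069 under DESeq2, −0.055 with TMM factors in limma, with or without the block, and −0.11 after quantile normalization. *mrpl40* went to −0.034, −0.059, −0.036 and −0.14 under edgeR, edgeR with the block, DESeq2 and quantile normalization. *mrps17*, at 0.10, went to −0.58, −0.56, −0.58 and −0.68 under the same 4, and to −0.53 with TMM factors in limma, with or without the block. *mrpl31* lay between −0.32 and 0.21 without 1 replicate. It kept its sign at −0.66 under edgeR, −0.70 under DESeq2, −0.69 with TMM factors in limma and −0.92 after quantile normalization. The median change of all genes moved too, from 0.69 to 0.03 under edgeR, 0.01 under DESeq2, 0.09 with TMM factors in limma and −0.06 after quantile normalization. The cause of the shifts of single members was not tested.

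With pseudocounts of 0.1 and 10 the median change under the authors' scaling, 3.42, became 4.02 and 1.68. The median member had 34.2 RPKM in IP over CDS segments, and scaled on protein-coding reads 56.6 in IP and 31.4 in input. Without 1 replicate the median lay between 26.05 and 28.2 RPKM in IP and between 1.01 and 2.00 in input. The log2 ratio of large to small subunit medians was −0.12 over CDS in IP, and in input −0.25, or −0.62 over CDS and between −0.30 and −0.077 without 1 replicate. A limit of 1000 bp gave 14 members with a divergent gene in place of 9. Other alternatives, on antisense level, convergent distance, pseudocount and filter, kept these counts within 1.5 times.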
